A study of Sorghum bicolor with 4 samples.

Results

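Sugar crosses membranes in a grass stem by way of carrier proteins, and 9 of their genes were examined here in the middle internode of sweet sorghum. They are the sucrose transporter genes SUT1 to SUT6, the tonoplast sugar transporter genes TST1 and TST2, and SWEET8A. They were chosen by gene identifier, among 34458 loci in the deposited table, and their names come with that choice and not from the table. Libraries came from field-raised plants of the line ICSA38 at physiological maturity (2 libraries) and at the earlier milk stage (2 libraries). The stages thus share line, organ position and growth in the field. The age of the plants in days is not given. The labels do not say whether the libraries of a stage came from separate plants, and a single line limits what the values say of other sorghums. FPKM by its usual definition is mapped fragments per unit of locus length, relative to all mapped fragments. How these values were scaled is not stated in the sources used here. The table holds, for each stage, 1 FPKM value a locus, taken as the authors' value over the libraries of that stage. No SD, interval or test can be had from it, and whether any difference exceeds the spread between libraries is unknown.

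Sucrose transporters of the SUT family carry sucrose together with a proton across a membrane. Some plant family members act in the plasma membrane, where they load the phloem or retrieve sucrose that has leaked from it, and others act in the membrane of the vacuole. SWEET proteins let sugars pass down a gradient without a proton, and in Arabidopsis and maize some of them release sucrose from cells next to the phloem. TST proteins exchange protons of the vacuole for sugar of the cytosol and so fill the vacuole, and in the sugar beet taproot such a protein loads sucrose for storage. The stalk of sweet sorghum is likewise a store of soluble sugar, held largely in vacuoles of the stem parenchyma.

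Each of the 9 genes had a row of its own in the table, and 0 of them shared a row with another identifier. By their identifiers, SUT1, SUT3 and TST1 lie on chromosome 1, SUT2, SUT5 and TST2 on chromosome 4, SUT6 on chromosome 7, and SUT4 and SWEET8A on chromosome 8. No genome was used, so coordinates and sequences are not given. The 6 genes SWEET8A, SUT1, SUT2, SUT4, TST1 and TST2 had values above 30 FPKM at each stage, whereas SUT3, SUT5 and SUT6 were listed at 0 at both. Of the 6, 4 had a higher value at maturity (SWEET8A, SUT1, TST2 and SUT4) and 2 a lower value (SUT2 and TST1). Only SWEET8A differed by at least 2-fold. In the table as a whole, 22.3% of the 18749 loci with at least 1 FPKM at either stage differed by that much, 11.5% being higher at maturity and 10.7% lower. A count of 1 among 6 genes is near that background and is not a result about these genes.

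**Figure D1:**
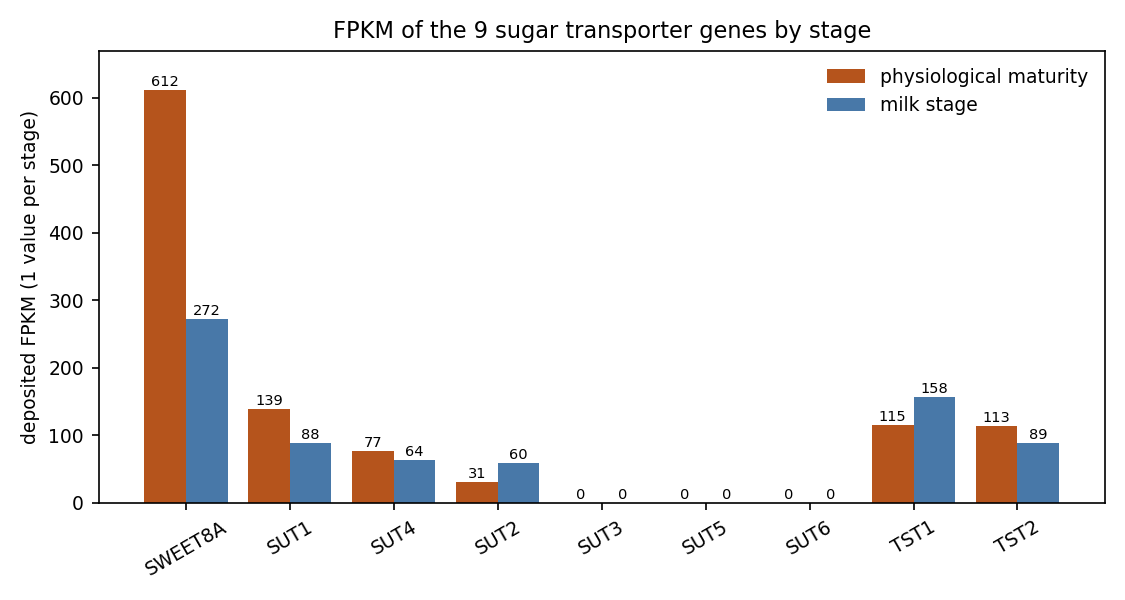
Deposited FPKM of the 9 genes (bars from 0, 1 value per stage, no error bars because the table holds no value per library), with physiological maturity left of the milk stage for each gene. SWEET8A is the tallest pair at 612 FPKM at maturity against 272 FPKM at the milk stage, SUT2 and TST1 are the genes with the taller bar at the milk stage, and SUT3, SUT5 and SUT6 are at 0.

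SWEET8A (Sobic.008G094000), the SWEET carrier of the set, was the most abundant of the genes at both stages. It stood at 612 FPKM at maturity, against 272 FPKM at the milk stage, a 2.25-fold higher value and a log2 difference of 1.17 after adding 1 to each FPKM. It ranked 93rd by FPKM among all 34458 loci at maturity and 431st at the milk stage. A rank within a stage does not depend on how the stages were scaled to each other. Of all loci compared, 91.5% had a lower log2 difference than SWEET8A. The next loci numbered after it that were above 1 FPKM, 2 and 3 places further on, were also higher at maturity. Sobic.008G094300 had 4.11 FPKM at maturity and 1.42 FPKM at the milk stage, a log2 difference of 1.08. Sobic.008G094400 had 25.5 FPKM at maturity and 7.51 FPKM at the milk stage, a log2 difference of 1.64. The table pairs neither identifier with a gene name, and both were picked out after their values were seen. Sobic.008G094300 was at 0.671% of the SWEET8A value at maturity and 0.522% at the milk stage, and Sobic.008G094400 at 4.17% and 2.76% at the same stages. Whether fragments were shared between SWEET8A and these loci was not tested.

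SUT1 (Sobic.001G488700) is the sucrose-proton symporter whose maize counterpart loads sucrose into the phloem of leaves. It was the most abundant SUT gene at both stages, at 139 FPKM at maturity and 88.3 FPKM at the milk stage. Its value was thus 1.57-fold higher at maturity (log2 difference 0.65), and it ranked 798th of all loci at maturity, against 1605th at the milk stage. SUT4 (Sobic.008G193300), a further member of the family, was at 76.9 FPKM at maturity and 64.0 FPKM at the milk stage, a log2 difference of 0.26. That difference lay inside the middle range of all loci compared, whose 25th and 75th percentiles were -0.48 and 0.57. SUT4 is the last but 1 of the 1859 loci with a single identifier on chromosome 8 in order of identifier.

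SUT2 (Sobic.004G353600), a member of the same family of proton-coupled carriers, was lower at maturity. It was at 31.5 FPKM at maturity, against 59.9 FPKM at the milk stage, a log2 difference of -0.91 and a milk-stage value 1.90 times the maturity value. It ranked 4348th of all loci at maturity and 2444th at the milk stage, the widest move down in rank of the set. Of all loci compared, 12.4% had a lower log2 difference. At the milk stage the SUT2 and SUT4 values were close, with SUT4 at 1.07 times SUT2, whereas at maturity SUT4 stood at 2.44 times SUT2. SUT1 was at 4.41 times SUT2 at maturity and 1.47 times at the milk stage. These ratios compare genes within a stage on the FPKM scale, which is per length, and 1 scaling factor per stage cannot change them.

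SUT3 (Sobic.001G254000), SUT5 (Sobic.004G190500) and SUT6 (Sobic.007G214500) complete the family and were listed at 0 FPKM at both stages. With depth unknown, no upper limit can be put on them, and a listed 0 does not show that the transcript was absent. Being listed at 0 at both stages was common in the table, at 19.7% of all loci. It depended on the kind of row. Rows that carry the gene's own identifier as their row name, as for SUT3 and SUT5, were at 0 at both stages in 57.2% of 10645 cases. Rows named with the prefix MSTRG and a number, as for SUT6 and the 6 genes with values, were at 0 at both stages in 2.92% of 23813 cases. SUT6 was therefore 1 of 696 MSTRG rows with 0 at both stages.

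Within the SUT family the makeup differed between the stages. The SUT genes summed to 247 FPKM at maturity and 212 FPKM at the milk stage, 1.17 times as much at maturity as deposited, 1.40 times with equal totals, 1.31 times with quantile normalization and 1.14 times with median-of-ratios scaling. SUT1 made up 56.2% of that sum at maturity and 41.6% at the milk stage. SUT2 made up 12.7% at maturity and 28.2% at the milk stage. SUT4 held nearly the same share, 31.1% at maturity and 30.2% at the milk stage. Shares within a stage add up to the whole. With the SUT4 share nearly unchanged, the gain of SUT1 (14.6 percentage points) had to be close in size to the loss of SUT2 (-15.5 percentage points). In FPKM as deposited, the changes were unlike in size, at 50.7 for SUT1 and -28.4 for SUT2.

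**Figure D2:**
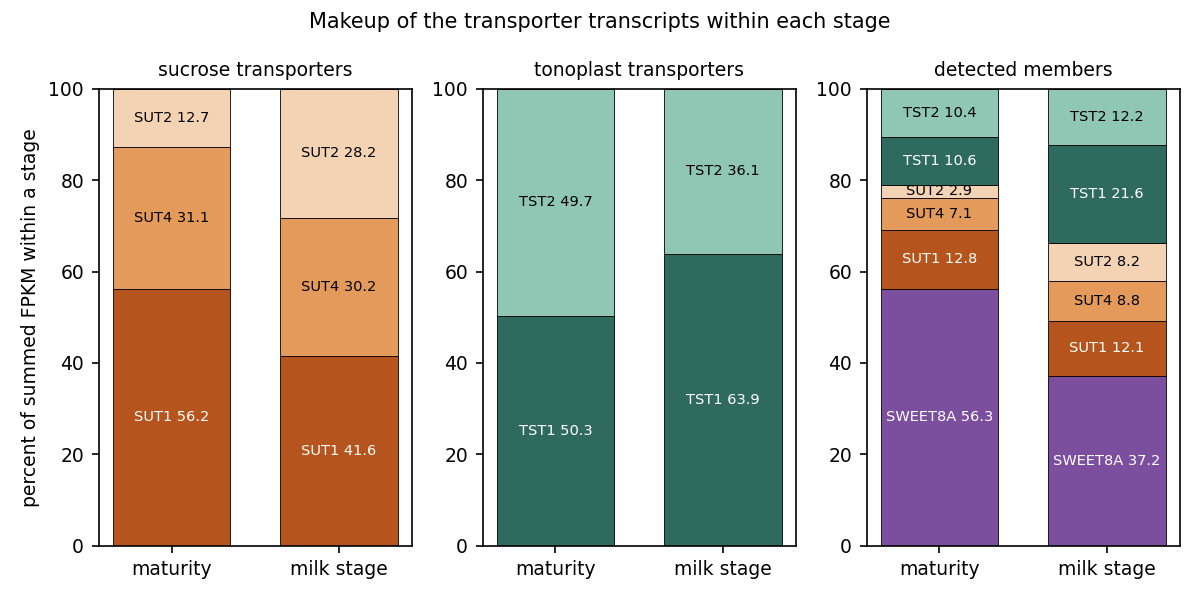
Percent of the summed FPKM taken by each gene within physiological maturity (left bar) and the milk stage (right bar), for the SUT genes, the TST genes and the 6 detected genes together. SUT1 takes 56.2% of the SUT sum at maturity against 41.6% at the milk stage, TST2 takes 49.7% of the TST sum against 36.1%, and SWEET8A takes 56.3% of the whole against 37.2%.

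The vacuolar membrane genes TST1 and TST2 encode carriers that bring sugar into the vacuole, and they differed in direction. TST1 (Sobic.001G312900) was at 115 FPKM at maturity, against 158 FPKM at the milk stage, a log2 difference of -0.45. TST2 (Sobic.004G099300) was at 113 FPKM at maturity, against 89.0 FPKM at the milk stage, a log2 difference of 0.35. Both differences lay inside the middle range of all loci given above. The TST2 value was 0.987 times that of TST1 at maturity and 0.564 times at the milk stage, so the genes were near equal at the later stage and TST1 was the more abundant at the earlier one. The TST1 rank among all loci was 1028 at maturity and 873 at the milk stage, and that of TST2 was 1053 at maturity and 1583 at the milk stage. Their sum was 228 FPKM at maturity and 247 FPKM at the milk stage, 0.926 times as much at maturity as deposited and 0.907 times with median-of-ratios scaling. The direction of this sum turned with equal totals (1.11 times) and with quantile normalization (1.07 times), so no direction is given for the TST genes together. Relative to the SUT sum, the TST sum stood at 0.923 at maturity and 1.16 at the milk stage.

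The order of the genes by level also differed between the stages. At maturity it ran SWEET8A, SUT1, TST1, TST2, SUT4 and SUT2, and at the milk stage SWEET8A, TST1, TST2, SUT1, SUT4 and SUT2. Neighbours in these orders such as TST2 and SUT1 at the milk stage (89.0 and 88.3 FPKM) or TST1 and TST2 at maturity (115 and 113 FPKM) cannot be ordered without a spread between libraries. The most abundant detected gene stood at 19.4 times the least abundant at maturity and at 4.54 times at the milk stage. Taken over all 9 genes, the FPKM sum was 1088 at maturity and 731 at the milk stage, with SWEET8A holding 56.3% of it at maturity and 37.2% at the milk stage. Against the SUT sum, SWEET8A stood at 2.48 at maturity and 1.28 at the milk stage. Tissue was sequenced in bulk, so a change in the share of cells of a type and a change in transcript per cell cannot be told apart for any of these genes.

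The stage ratios of the 6 detected genes gave 15 pairs, of which 6 differed at least 2-fold between their members. SUT2 was in 4 of those 6 pairs and TST1 in 2. The widest was SWEET8A against SUT2, whose maturity to milk ratios differed 4.28-fold, followed by SWEET8A against TST1 at 3.09-fold and SUT1 against SUT2 at 2.99-fold. The pair TST2 and SUT4 was the closest, at 1.06-fold. Among all pairs of the 2963 loci whose mean FPKM lay in the range of the 6 genes (45.7 to 442 FPKM), 40.3% differed at least 2-fold in the same way. The count of 6 in 15 is thus near the background, and divergence of this size between transporter genes was common among loci of like abundance.

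**Figure D3:**
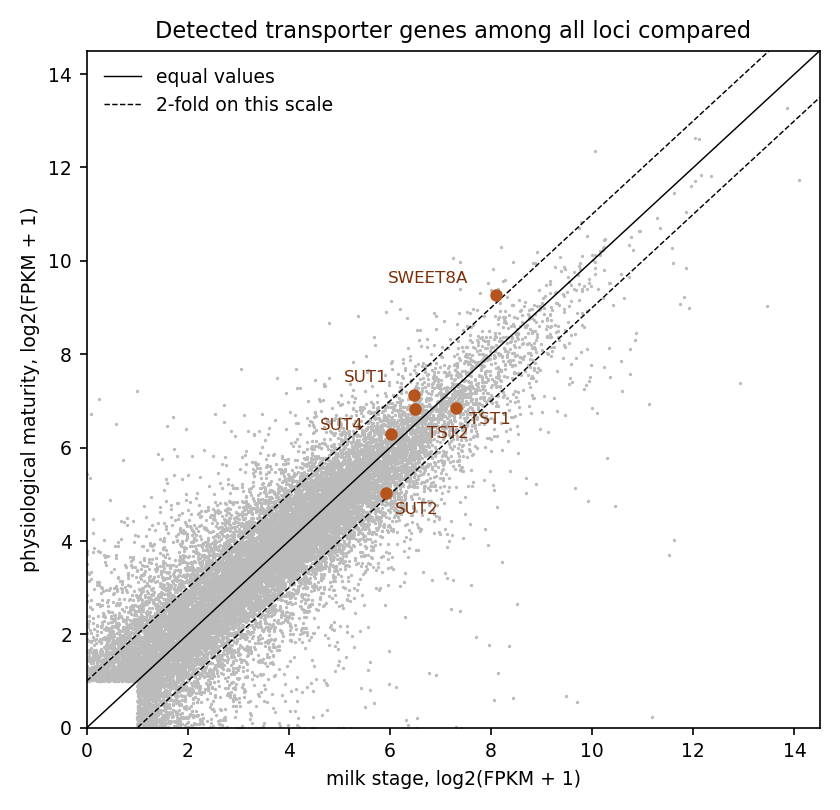
Level at physiological maturity against the milk stage on the log2(FPKM + 1) scale for all 18749 loci compared (grey) and the 6 detected transporter genes (orange), with the solid line at equal values and dashed lines at 2-fold. SWEET8A lies just above the upper dashed line at a log2 difference of 1.17, and SUT2 lies just inside the lower one at -0.91.

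Among the 2963 loci in the abundance range of the 6 genes, 7.93% were higher at maturity by 2-fold or more and 15% lower by as much, together 22.9%. Their median log2 difference was -0.17, between a 25th percentile of -0.66 and a 75th percentile of 0.35. This direction depended on the scaling. With equal totals the median of the same loci was 0.09, with 12.3% higher and 9.72% lower by 2-fold or more. With quantile normalization it was 0.01, with 10.3% higher and 11.9% lower. Median-of-ratios scaling kept the direction as deposited, with a median of -0.20, 7.69% higher and 15.6% lower. The median over all loci compared was 0.04 as deposited. The median of the 6 genes was 0.30. Set against loci of the same range as deposited, SWEET8A and SUT1 lay above the 75th percentile, TST2 lay at it, SUT4 and TST1 lay between the quartiles, and SUT2 lay below the 25th percentile.

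The total of the table differed between the stages, at 666768 FPKM at maturity and 800834 FPKM at the milk stage, and this bears on the size of each difference. Rescaled to TPM, which divides each FPKM by the total of its stage, SWEET8A was at 918 TPM at maturity and 340 TPM at the milk stage. On that scale SUT1 was at 208 TPM at maturity and 110 TPM at the milk stage, and TST1 at 172 TPM at maturity and 197 TPM at the milk stage. All 6 genes kept their direction with the totals set equal, with quantile normalization and with median-of-ratios scaling. TST1 came closest to no difference, at -0.19 with equal totals and -0.21 with quantile normalization. Setting the totals equal shifted the median of all loci by 0.24 on the log2 scale and made 69.7% of the loci at least 2-fold apart higher at maturity, against 51.8% as deposited.

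**Figure D4:**
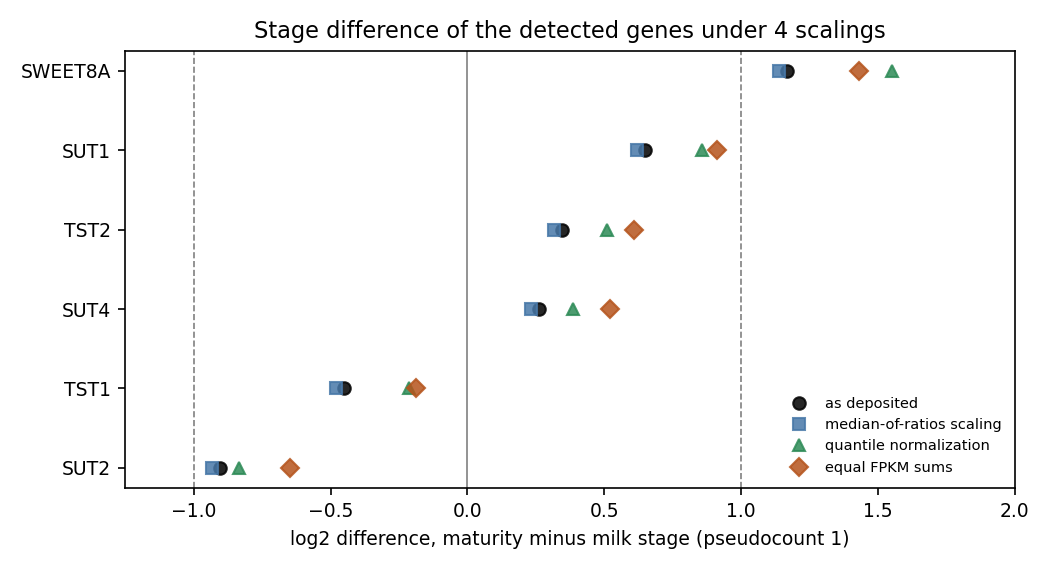
Log2 difference (maturity minus milk stage, pseudocount 1) of the 6 detected genes as deposited and under 3 other scalings between the stages, with dashed lines at 2-fold. SWEET8A stays beyond 2-fold under each, from 1.14 to 1.55, and TST1 lies nearest to 0 with equal sums at -0.19.

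Values closely like those of each gene were easy to find. For every detected gene the 2 nearest loci with a single identifier, by distance over the stage values of log2(FPKM + 1), lay between 0.02 and 0.19 away, with the widest distances for SWEET8A. The nearest to SUT2 were Sobic.010G186600, at 31.3 FPKM at maturity and 58.7 FPKM at the milk stage, and Sobic.006G046700, at 32.1 FPKM at maturity and 60.7 FPKM at the milk stage. The table does not name these genes. Likeness over a single value per stage says only that the levels match.

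Loci with a single identifier numbered directly before or after the 9 genes were mostly low. Of those 18 neighbours, 7 reached 1 FPKM at either stage. None of the 7 was at least 2-fold higher at maturity, and 1, beside TST1, was at least 2-fold lower, which is near the 22.3% of all loci that differed by that much. The locus numbered just before SUT2 was the most abundant of the direct neighbours of a detected gene, with 41.9 FPKM at maturity and 68.8 FPKM at the milk stage, a log2 difference of -0.70 beside the -0.91 of SUT2. Loci further off went both ways. Sobic.004G353400, 2 places before SUT2, had a log2 difference of 0.48, and Sobic.004G353800, 3 places after it, -0.14. Near TST1, Sobic.001G312600, 3 places before it, had 1.55, and Sobic.001G313100, 2 places after it, -0.70.

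Of 3 other genes of sucrose use fixed by published identifier, 1 was higher at maturity by 2-fold or more and 0 were lower by as much with a pseudocount of 1, beside 11.5% and 10.7% of all loci compared. Sobic.001G344500, a gene for sucrose synthase, which splits sucrose reversibly, had 209 FPKM at maturity and 77.2 FPKM at the milk stage. Sobic.010G072300, the other sucrose synthase gene among these 3, had 720 FPKM at maturity and 543 FPKM at the milk stage. It was thus above SWEET8A at each stage. Sobic.004G004800 is a gene for vacuolar invertase, which cleaves sucrose inside the vacuole, the compartment that the TST proteins fill. It had 0.286 FPKM at maturity and 1.43 FPKM at the milk stage, far below either TST gene. Its log2 difference was -0.92 with a pseudocount of 1, but beyond 2-fold at -1.30 when 0.5 was added, at -1.99 when 0.1 was added and at -2.32 as a plain ratio. The names of these 3 genes are not in the table, and other genes for these enzymes were not examined.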

How the data were processed

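RNA of the middle stem internode was sequenced in 4 libraries, 2 per stage. Per the labels' protocols, RNA was taken with a modified Trizol method and libraries were stranded total RNA. The tools named in the submitters' processing notes, without their roles, are HISAT2 2.0.5, Cuffdiff, Bowtie2 2.2.9 and cutadapt 1.8.1. The sources used here give no build, strand setting or scaling. FPKM values were computed by the authors and deposited with 1 column per stage. Depth per library is unknown, so no counting error can be given. Of the rows, 31423 carry 1 gene identifier, 1262 several and 1773 none.

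The planned limma test needed a value per library and was not run. From the deposited values, log2(FPKM + 1) at maturity minus that at the milk stage was computed for loci with at least 1 FPKM at either stage, and 2-fold was the limit of size. Shares and ratios were formed within a stage. The members and lists were chosen with earlier results of these data known. Named genes are all 9 members, 3 genes of sucrose use by published identifier, the 2 loci nearest each detected member in level (printed for SUT2, since the table names no genes) and loci numbered beside members. Lists by product words, cell type and tissue markers included, could not be formed, because 0 of 34129 identifiers matched the reference gene table. The stem label was therefore not checked against markers. The settings varied were the scaling (3 others), the FPKM minimum (5, or no minimum), the pseudocount (0.1 and 0.5) and, added after seeing the data, plain ratios, loci with 1 identifier, and the scalings or pseudocounts given beside the family sums, the loci of like abundance and the 3 genes of sucrose use. The calculation was tested on simulated data with 200 loci changed. Python 3.11.15, numpy 2.4.6, pandas 2.3.3 and matplotlib 3.10.9 were used.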

Additional observations from a re-analysis of the deposited data

How the results depend on the processing

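The log2 differences of the 6 detected genes kept their sign and their side of the 2-fold limit under 3 other scalings, a minimum of 5 FPKM or none, pseudocounts of 0.1 and 0.5, and plain ratios (chosen after seeing the data). A pseudocount or filter cannot turn a sign. Equal sums and median-of-ratios scaling moved all loci alike, by 0.26 and -0.03 on the log2 scale before a pseudocount. Each shift was smaller than the differences it worked against, so quantile normalization was the only alternative that could have turned a sign. The values ran from 1.14 to 1.55 for SWEET8A, 0.62 to 0.91 for SUT1, 0.32 to 0.61 for TST2, 0.23 to 0.52 for SUT4, -0.48 to -0.19 for TST1 and -0.93 to -0.65 for SUT2. With quantile normalization the SUT1 share of the SUT sum was 57.8% at maturity and 41.6% at the milk stage, and TST2 stood at 0.986 times TST1 at maturity and 0.595 times at the milk stage. The summed TST value changed direction with the scaling, from 0.907 to 1.11 times as much at maturity as at the milk stage, while the SUT sum stayed higher at maturity, from 1.14 to 1.40 times. Counts of loci at least 2-fold apart stayed within 1.5 times those reported. With equal sums they were 3211 higher and 1397 lower, against 2163 higher and 2011 lower as deposited. No paired analysis was possible because values per library are not among the columns used here, and fits that leave out a library were not run for the same reason, so the weight of any 1 library in these values is unknown. Depth is unknown, which limits most the reading of the genes listed at 0.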
